A study of Mus musculus with 3 samples.

Results

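The genes that encode the subunits of oxidative phosphorylation were read across 3 libraries of mouse lacrimal gland nuclei. Members were all genes whose symbols follow the naming series of complex I (Ndufa, Ndufb, Ndufc, Ndufs, Ndufv and the mt-Nd genes), complex II (Sdha to Sdhd), complex III (Uqcr and mt-Cytb), complex IV (Cox4 to Cox8 and the mt-Co genes) and complex V (Atp5 and the mt-Atp genes), without pseudogenes and with at least 50 unique molecular identifiers (UMIs) over the 3 libraries. Of 32285 genes in the tables, 106 symbols matched and 99 reached the minimum. The 99 are 13 mitochondrially encoded and 86 nuclear-encoded genes. The symbol series also takes in the 8 complex I assembly factors Ndufaf1 to Ndufaf8, which are not subunits and were summed apart from the 78 nuclear-encoded subunits. The 7 symbols under the minimum were Cox6b2 with 29 UMIs, Cox7a1 with 16, Ndufa4l2 with 7, Cox8c with 5, Cox4i2 with 4, Cox8b with 1 and Cox6a2 with 0.

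Nuclei were profiled with droplet 3' single-nucleus RNA sequencing, with 1 library per group. The tamsulosin library came from mice of a dry eye model (scopolamine and dry stress) that were also given tamsulosin, a blocker of alpha-1 adrenergic receptors, the scopolamine library from mice of the same model without tamsulosin, and the control library from normal mice. Scopolamine blocks muscarinic receptors, through which nerves drive tear secretion. Strain, age, dose and the number of animals per library are not given in the sources used here, and a sort for red fluorescent nuclei is named in a protocol text that also covers another assay, so whether it was applied to these libraries could not be settled. Each group is n = 1, so no difference has a replicate check and no test between groups was run. Intervals are given at 95% and cover the counting error of the UMIs alone.

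Oxidative phosphorylation makes most of the ATP of an aerobic cell. Complexes I to IV pass electrons from NADH and succinate to oxygen. Complexes I, III and IV pump protons across the inner mitochondrial membrane, and complex V, the ATP synthase, uses the proton gradient. A small set of core subunits of complexes I, III, IV and V is encoded in the mitochondrial genome and transcribed inside the organelle, whereas all 4 subunits of complex II and most subunits of the other complexes are encoded in the nucleus and imported as proteins. Gland epithelium uses this ATP for ion transport and exocytosis.

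After filtering, 10864 tamsulosin, 9205 scopolamine and 6780 control nuclei remained, with medians of 3350, 1739 and 2331.5 UMIs. Clusters were made without the members and without other mitochondrial genes, so the members did not set the classes, and 6 classes had at least 100 nuclei in every library. Acinar-like nuclei (the secretory cells of the gland) numbered 2555, 6044 and 5123, and duct-like nuclei 3461, 727 and 451. Acinar-like is partly a remainder class: its markers averaged log2 ratios of -0.01 in cluster 2 and 0.02 in cluster 21 over the non-epithelial nuclei of the same libraries, and these clusters hold 1988 of its scopolamine and 4645 of its control nuclei. Different clusters hold most of each library's acinar-like nuclei (3 and 6 for tamsulosin, 2 and 9 for scopolamine, 21 and 22 for control). Duct-like clusters 1 and 4 hold 1638 and 1785 of the tamsulosin nuclei and also 283 and 330 of the scopolamine nuclei. Cluster 12 holds 414 of the 451 duct-like control nuclei. Low-complexity clusters, with 2936, 516 and 52 nuclei, were left unnamed. The libraries shared between 22 and 35 cell barcodes per pair.

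Promoters of the nuclear-encoded members are shown first, since these genes are known to share binding sites of nuclear respiratory factor 1 (NRF1) and of ETS-family factors such as GABP. In the RefSeq promoter table (build GRCm38.p6), 77 entries matched 72 of the 86 nuclear-encoded members, and 14 members had no entry. The word GCGCA followed by any base and GCGC, a form of the NRF1 site, was found on either strand in the 250 bases before the start in 15 of the 77 entries (19.5%), against 1228 of all 32851 entries (3.74%). The word CCGGAAG, a form of the ETS site, was found on either strand in 14 of 77 entries (18.2%), against 2269 of all entries (6.91%). At least 1 of the words was in 26 of 77 entries (33.8%), against 10.1% of all, and 3 member entries held both. Upstream bases are given for 3 members, chosen after their values were seen, that were higher in tamsulosin than in scopolamine nuclei in 4 of 4, 3 of 6 and 6 of 6 classes where they could be counted: Atp5h, the d subunit of the ATP synthase stalk, chr11:115419963-115420169, minus strand; Uqcrh, the hinge subunit of complex III, chr4:116075072-116075320, minus strand; and Ndufa4, a subunit of complex IV that was first assigned to complex I, chr6:11907498-11907700, minus strand. Capitals mark the NRF1 word in Atp5h and the ETS word, read on the opposite strand, in Uqcrh. The Atp5h entry is among the 3 that held both words, and its ETS word lies outside the stretch shown. The Ndufa4 stretch holds neither word. A class could be counted only where the gene reached a set level, which a high tamsulosin value helps it reach, so 4 of 4 for Atp5h does not measure consistency.
Atp5h: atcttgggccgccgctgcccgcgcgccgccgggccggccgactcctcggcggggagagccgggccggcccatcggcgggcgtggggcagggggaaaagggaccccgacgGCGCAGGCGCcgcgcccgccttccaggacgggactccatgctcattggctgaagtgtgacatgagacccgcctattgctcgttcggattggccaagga
Uqcrh: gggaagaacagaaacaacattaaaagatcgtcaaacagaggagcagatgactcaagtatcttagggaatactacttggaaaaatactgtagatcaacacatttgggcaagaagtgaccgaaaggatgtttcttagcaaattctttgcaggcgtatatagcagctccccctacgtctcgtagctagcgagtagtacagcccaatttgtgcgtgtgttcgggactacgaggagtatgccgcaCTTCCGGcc
Ndufa4: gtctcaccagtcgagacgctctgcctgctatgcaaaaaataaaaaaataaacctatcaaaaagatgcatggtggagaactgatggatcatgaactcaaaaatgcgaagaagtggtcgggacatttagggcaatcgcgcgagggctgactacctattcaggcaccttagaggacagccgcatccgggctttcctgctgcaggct

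The mitochondrially encoded genes differed far more between libraries than the nuclear-encoded ones. Over all kept nuclei, the 13 mitochondrially encoded genes took 0.911% of UMIs (0.908 to 0.913) in tamsulosin, 0.336% (0.334 to 0.338) in scopolamine and 0.236% (0.234 to 0.238) in control nuclei. The 86 nuclear-encoded genes took 0.187% (0.185 to 0.188), 0.149% (0.148 to 0.150) and 0.164% (0.163 to 0.165). The mitochondrially encoded share was thus 2.71-fold (2.69 to 2.73) higher in tamsulosin than in scopolamine nuclei, and the nuclear-encoded share 1.25-fold (1.24 to 1.27) higher. For each nuclear-encoded UMI there were 4.88 mitochondrially encoded UMIs in tamsulosin, 2.26 in scopolamine and 1.44 in control nuclei. Thinned to 1000 UMIs, 2.54% of tamsulosin, 15.3% of scopolamine and 33.6% of control nuclei had no mitochondrially encoded UMI, and unthinned these were 0.0092%, 3.48% and 10.3%. The scopolamine share leaves out 713 nuclei with fewer than 1000 UMIs.

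To set genes against the rest of their class, log2 ratios of counts per 1e6 UMIs (CPM) were taken with a pseudocount of 5 CPM and set relative to the median of all genes whose mean of both libraries reached 20 CPM, and a gene at that level was counted as higher or lower beyond 1.5-fold. By this count 12 of 12 mitochondrially encoded and 7 of 27 nuclear-encoded genes were higher in tamsulosin than in scopolamine nuclei in all kept nuclei together, where 8.34% of all genes were higher and 2.35% lower. Of these 7 members, 6 were among the 14 that span under 10 kb, and 39.3% of the other genes of that length were higher too. Between scopolamine and control they were 10 of 12 and 1 of 24, where 9.28% of all genes were higher and 3.84% lower. The libraries hold different shares of each cell class, so these sums were taken apart by class.

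Other RNA moved with these shares. Over all kept nuclei, the cytosolic ribosomal protein genes, another set of short abundant transcripts, took 0.892% of UMIs in tamsulosin, 0.503% in scopolamine and 0.393% in control nuclei. A list of 11 secretory transcripts of the gland (Mucl2, Scgb2b2, Obp1a and others) took 32.3%, 25.6% and 6.01%, and in macrophage-like nuclei, which should lack them, still 28.3%, 18.0% and 5.79%. Malat1, a long noncoding RNA kept in the nucleus, took 2.76%, 3.41% and 3.25%. Summed erythroid markers in acinar-like nuclei were 79.8, 9.3 and 9.0 CPM. The part of these in the members' shares was not tested.

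**Figure D1:**
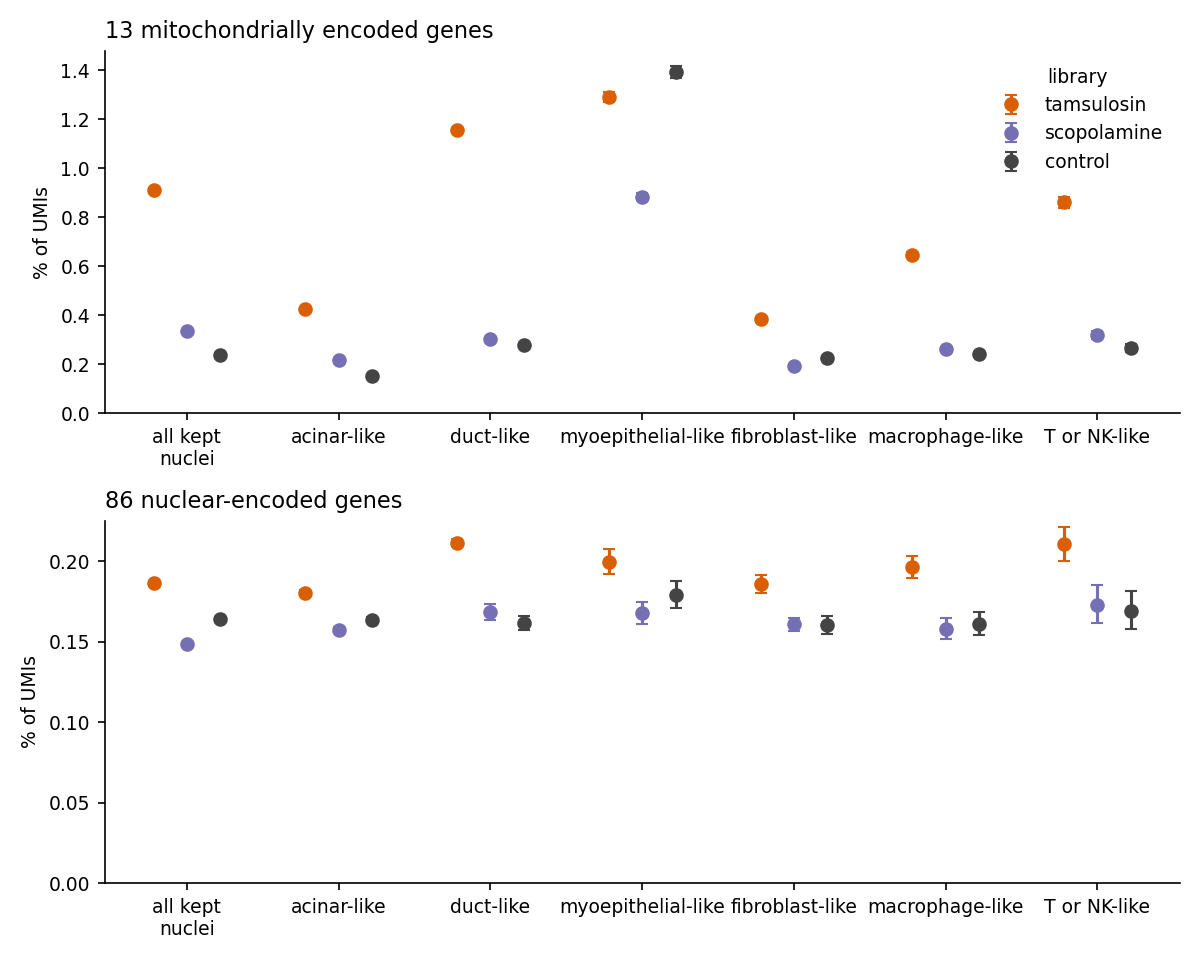
Share of UMIs (%, y axis from 0) of the 13 mitochondrially encoded genes (top) and the 86 nuclear-encoded genes (bottom) in all kept nuclei and 6 cell classes (x axis); each point is 1 library and bars are 95% counting intervals. The mitochondrially encoded share spans 0.150% to 1.39%, with myoepithelial-like nuclei highest in each library, while the nuclear-encoded share stays between 0.149% and 0.212%.

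Across cell classes the mitochondrially encoded share had the same top in all 3 libraries. Myoepithelial-like nuclei, from the cells that squeeze the acini, had 1.29% (1.27 to 1.31) in tamsulosin, 0.884% (0.869 to 0.900) in scopolamine and 1.39% (1.37 to 1.42) in control nuclei. Acinar-like nuclei had 0.425% (0.421 to 0.428), 0.216% (0.214 to 0.218) and 0.150% (0.149 to 0.152). The myoepithelial-like share was therefore 3.04 times the acinar-like share in the tamsulosin library, 4.09 times in the scopolamine library and 9.26 times in the control library. All 13 genes were above the other kept nuclei in myoepithelial-like nuclei in 3 of 3 libraries and below them in acinar-like nuclei in 3 of 3. Of all 16095 genes with at least 50 UMIs, 20.3% were above in myoepithelial-like and 32.1% below in acinar-like nuclei in all 3 libraries. The median nucleus showed the same order, with 0.799%, 0.622% and 0.927% in myoepithelial-like and 0.406%, 0.242% and 0.103% in acinar-like nuclei. Myoepithelial-like nuclei also had more of the secretory transcripts (39.2%, 29.1% and 8.40% of UMIs, which was 1.54, 1.42 and 1.45 times the acinar-like share) and of cytosolic ribosomal protein transcripts (0.997%, 0.584% and 0.482%, or 1.35, 1.11 and 1.26 times). The part of these in the mitochondrially encoded share was not tested.

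The other classes lay between or near the acinar-like level. Duct-like nuclei had 1.16% (1.15 to 1.16) in tamsulosin, 0.304% (0.298 to 0.311) in scopolamine and 0.280% (0.274 to 0.286) in control. T or NK-like nuclei had 0.861%, 0.320% and 0.267%, macrophage-like nuclei 0.644%, 0.260% and 0.242%, and fibroblast-like nuclei 0.385%, 0.193% and 0.224%. Duct-like nuclei stood next after myoepithelial-like nuclei in the tamsulosin and control libraries, and in the scopolamine library T or NK-like nuclei came between them. The intervals of T or NK-like nuclei (0.304 to 0.336 in scopolamine, 0.252 to 0.282 in control) overlapped those of duct-like nuclei in both libraries. Fibroblast-like nuclei were lowest in the tamsulosin and scopolamine libraries, and acinar-like nuclei in the control library.

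The nuclear-encoded share was nearly level across classes. It ran from 0.180% in acinar-like to 0.212% in duct-like nuclei of the tamsulosin library, from 0.158% in acinar-like to 0.173% in T or NK-like nuclei of the scopolamine library, and from 0.160% in fibroblast-like to 0.179% in myoepithelial-like nuclei of the control library. Duct-like over acinar-like was 1.17 (1.15 to 1.19), 1.07 (1.04 to 1.10) and 0.987 (0.959 to 1.02) in the tamsulosin, scopolamine and control libraries, so the order of these 2 classes was not the same in all libraries.

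In the comparison of tamsulosin with scopolamine nuclei, all 6 classes had higher mitochondrially encoded shares in the tamsulosin library. The ratio was 3.80 (3.72 to 3.89) in duct-like, 2.69 (2.55 to 2.84) in T or NK-like, 2.47 (2.39 to 2.57) in macrophage-like, 1.99 (1.93 to 2.06) in fibroblast-like, 1.96 (1.94 to 1.99) in acinar-like and 1.46 (1.43 to 1.49) in myoepithelial-like nuclei. The nuclear-encoded share was also higher in all 6, but only by 1.14 (1.13 to 1.16) in acinar-like to 1.26 (1.22 to 1.30) in duct-like nuclei. Over the same classes the cytosolic ribosomal protein share was 1.41 times as high in acinar-like and 1.98 times as high in duct-like nuclei.

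In the comparison of scopolamine with control nuclei, the mitochondrially encoded share was 1.44 times as high (1.42 to 1.46) in acinar-like nuclei, 1.20 (1.11 to 1.29) in T or NK-like, 1.09 (1.05 to 1.12) in duct-like and 1.07 (1.03 to 1.13) in macrophage-like nuclei. It was lower in myoepithelial-like nuclei, at 0.635 (0.619 to 0.651), and in fibroblast-like nuclei, at 0.861 (0.830 to 0.894), though the fibroblast-like ratio turned to 1.61 at a clustering resolution of 2.0, 1.12 with at least 1600 UMIs per nucleus and 1.08 with doublets kept. The acinar-like ratio over all clusters depends on cluster 9, which holds 3454 of the 6044 scopolamine nuclei and has a median of 1072 UMIs. Clusters 3 and 22 taken alone, which leave out cluster 9, stood higher in scopolamine. Their mitochondrially encoded genes had a median relative log2 ratio of 0.86, from 432 scopolamine and 458 control nuclei. Of these, 428 scopolamine nuclei lie in cluster 3 (median of 2282 UMIs) and 457 control nuclei in cluster 22 (median of 2657 UMIs). Cluster, depth and library therefore cannot be told apart in this subset. With only cluster 9 left out, the share was 0.144% in scopolamine and 0.147% in control nuclei, a ratio of 0.977, and with at least 1600 UMIs per nucleus in every library the ratio was 1.01. The duct-like ratio was below 1 with nuclei thinned to 1000 UMIs (0.834) or without the mitochondrial limit (0.934), the macrophage-like one when thinned (0.921) or with at least 1600 UMIs (0.997), and the T or NK-like one without the mitochondrial limit (0.939) or with at least 1600 UMIs (0.924). Of the 6 classes, the myoepithelial-like one kept its direction under every alternative run, with ratios from 0.635 to 0.818. The nuclear-encoded share of acinar-like nuclei stood at 0.962 (0.947 to 0.977) of control, and turned to 1.01 when thinned and to 1.14 over UMIs without the secretory list and the mitochondrially encoded genes.

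Among acinar-like nuclei, clusters with fewer UMIs per nucleus had higher mitochondrially encoded shares within each library, while by single nuclei the control library did not follow that order. With the nuclei of each library split into 3 equal groups from low to high depth, the shares were 0.701%, 0.514% and 0.333% in tamsulosin, 0.435%, 0.3998% and 0.142% in scopolamine, and 0.195%, 0.265% and 0.116% in control. In the scopolamine library, cluster 9 had 0.448% (mean of 1216 UMIs per nucleus), cluster 3 had 0.308% (2094 UMIs), cluster 6 had 0.234% (5413 UMIs) and cluster 2 had 0.125% (5884 UMIs). In the tamsulosin library, cluster 3 had 0.830% (2855 UMIs) and cluster 6 had 0.371% (6860 UMIs). In the control library, cluster 22 had 0.207% (3169 UMIs) and cluster 21 had 0.143% (4587 UMIs). Clusters 3 and 22 share Kit, a receptor tyrosine kinase, and Car6, a secreted carbonic anhydrase, among their leading genes, and taken alone they gave 0.830%, 0.307% and 0.208%, a tamsulosin over scopolamine ratio of 2.71 and a scopolamine over control ratio of 1.48. The nuclear-encoded share moved less, from 0.155% to 0.223% over all 8 cluster and library pairs.

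**Figure D2:**
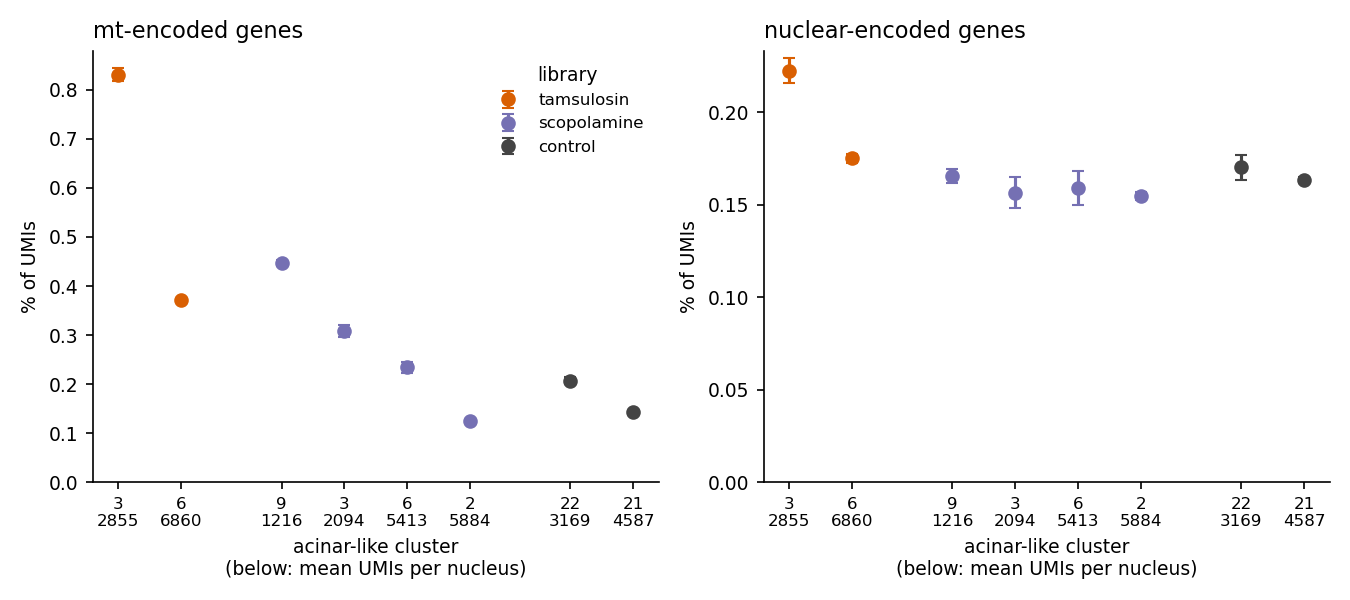
Share of UMIs (%, y axis from 0) of mitochondrially encoded (left) and nuclear-encoded (right) genes in each acinar-like cluster with at least 100 nuclei; the x axis gives the cluster number and its mean UMIs per nucleus, colours are libraries and bars are 95% counting intervals. Within each library the mitochondrially encoded share is lowest in the cluster with the most UMIs per nucleus, down to 0.125% in cluster 2 of the scopolamine library.

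Each mitochondrially encoded gene was read on its own in acinar-like nuclei, in CPM. They lie on chrM of GRCm38, 12 on the plus strand from mt-Nd1 (chrM:2751-3707) to mt-Cytb (chrM:14145-15288), and mt-Nd6 (chrM:13552-14070) on the minus strand. The annotated spans of mt-Atp8 and mt-Atp6, and of mt-Nd4l and mt-Nd4, overlap at their ends on the same strand. UMIs at these ends may have been assigned to either gene or to none. Those of mt-Nd5 and mt-Nd6 also overlap, but on opposite strands. The median subtracted from log2 ratios in acinar-like nuclei was -0.10 for tamsulosin over scopolamine and -0.29 for scopolamine over control.

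mt-Atp6, a proton channel subunit of the ATP synthase, had 699.8 CPM in tamsulosin, 214.0 in scopolamine and 194.5 in control acinar-like nuclei. The tamsulosin level stood apart, at 3.27 times (3.15 to 3.40) the scopolamine level, the highest ratio among members that reached 20 CPM. mt-Co1, the catalytic subunit of complex IV, had 704.7, 416.4 and 258.2 CPM, and mt-Nd4, a membrane subunit of complex I, had 455.2, 267.1 and 136.0 CPM. For both genes the 3 libraries stood in the order tamsulosin, scopolamine, control. mt-Nd6, the complex I subunit encoded on the other strand, had 29.8, 32.3 and 13.9 CPM. It was the only mitochondrially encoded gene not above scopolamine in the tamsulosin nuclei, with a ratio of 0.923 (0.814 to 1.05), and it is among the 10 leading genes of cluster 9. Without cluster 9 its relative log2 ratio was 1.02. mt-Nd3, another membrane subunit of complex I, had 60.4, 28.7 and 39.1 CPM, the lowest value being that of scopolamine.

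Of the 13 genes, 12 had a mean of at least 20 CPM in acinar-like nuclei and mt-Atp8 (12.8, 6.57 and 9.03 CPM) did not. Of the 12, 10 were counted as higher in tamsulosin than in scopolamine nuclei, where 2.52% of all 5405 genes at that level were higher and 0.407% lower. The lowest of these was mt-Nd5 at a relative log2 ratio of 0.64, and mt-Nd4l at 0.57 lay just outside the limit. Against control, 8 of the 12 scopolamine values were higher, where 7.19% of 5720 genes were higher and 3.69% lower. mt-Nd6 (1.27) and mt-Nd4 (1.24) were highest, and mt-Nd3 (-0.10), mt-Atp6 (0.43), mt-Nd1 (0.47) and mt-Cytb (0.58) were not counted. Without cluster 9, mt-Nd4 (0.63) was the 1 member counted as higher and mt-Nd3 (-0.66) the 1 counted as lower in that comparison.

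For mt-Atp6, mt-Nd3, mt-Nd4, mt-Co1, mt-Co3 and mt-Nd1, at least 1 library stood apart from the others in every cell class in the make-up of the mitochondrially encoded UMIs. mt-Atp6 took 15.7 to 17.6% of these UMIs over the 6 classes of the tamsulosin library, 9.68 to 11.7% in the scopolamine library and 10.3 to 14.6% in the control library. The tamsulosin range did not overlap the others. mt-Nd3 took 1.28 to 1.56% in tamsulosin, 1.22 to 1.33% in scopolamine and 2.17 to 2.86% in control nuclei, and mt-Nd4 took 10.7 to 11.5%, 12.0 to 13.6% and 7.81 to 10.2%. For mt-Nd3 the control range lay above both others, and for mt-Nd4 the 3 ranges were apart, with scopolamine highest and control lowest. For mt-Co1 (14.7 to 16.6% in tamsulosin, 18.4 to 20.3% in scopolamine, 16.7 to 18.4% in control) and for mt-Co3 (16.4 to 17.4%, 17.4 to 20.3% and 17.5 to 21.3%) the tamsulosin range was lowest, narrowly apart from the next. For mt-Nd1 (4.14 to 4.79%, 3.73 to 4.13% and 4.40 to 5.28%) the scopolamine range lay below both others, again narrowly. For mt-Cytb (8.02 to 9.06%, 7.19 to 8.48% and 7.17 to 9.01%) all 3 ranges overlapped. With 1 library per group, a library's own make-up and its condition cannot be told apart.

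**Figure D3:**
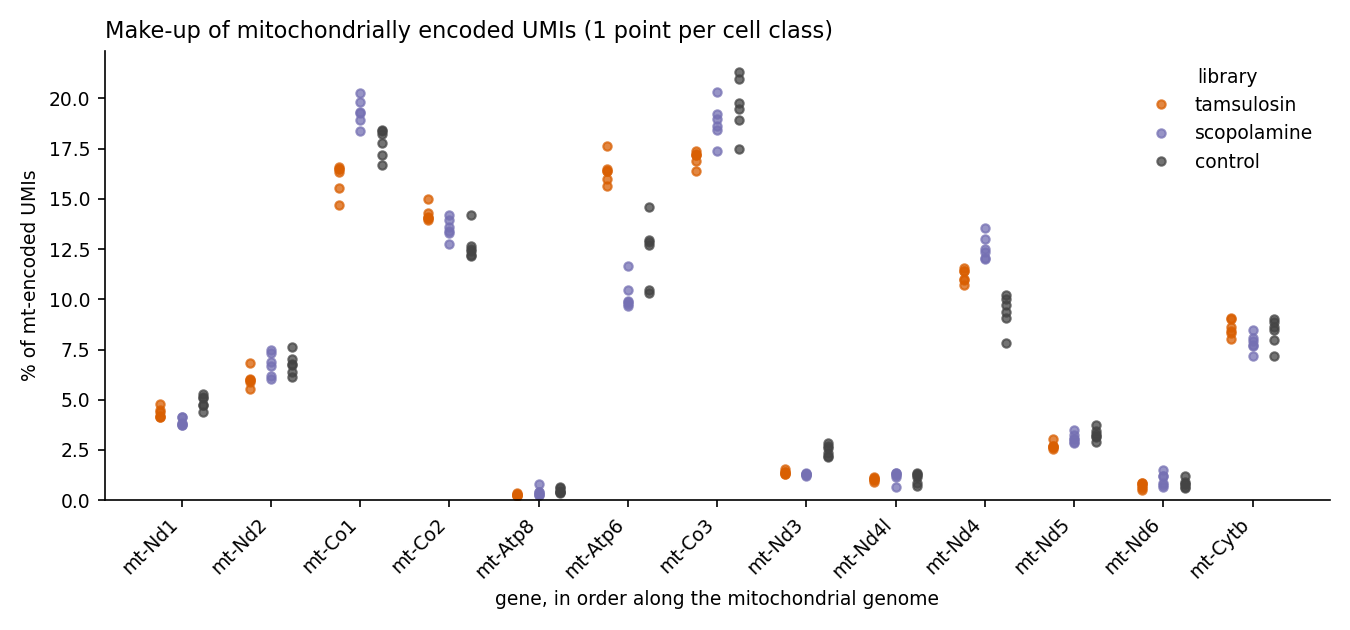
Share (%) of each of the 13 genes among all mitochondrially encoded UMIs (y axis from 0), with genes on the x axis in their order along the mitochondrial genome; each point is 1 cell class and colours are libraries. The tamsulosin points of mt-Atp6 (15.7 to 17.6%) lie above all others of that gene, and the control points of mt-Nd3 (2.17 to 2.86%) above the other libraries.

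By complex, mitochondrially encoded and nuclear-encoded subunits differed unequally. In acinar-like nuclei the mitochondrially encoded genes of complex I took 0.113% of UMIs in tamsulosin, 0.0672% in scopolamine and 0.0428% in control nuclei, and those of complex IV took 0.204%, 0.110% and 0.0737%. mt-Cytb of complex III took 0.0367%, 0.0167% and 0.0136%, and the 2 genes of complex V took 0.0713%, 0.0221% and 0.0204%. Tamsulosin over scopolamine ran from 1.68 for complex I to 3.23 for complex V, and scopolamine over control from 1.08 for complex V to 1.57 for complex I.

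Among nuclear-encoded subunits, complex IV was the group with the largest tamsulosin over scopolamine ratio in acinar-like nuclei. Its 13 genes took 0.0327% of UMIs in tamsulosin, 0.0250% in scopolamine and 0.0205% in control nuclei, with ratios of 1.31 (1.25 to 1.36) for tamsulosin over scopolamine and 1.22 (1.17 to 1.27) for scopolamine over control. The 8 genes of complex III took 0.0179%, 0.0143% and 0.0141%, and the 17 genes of complex V took 0.0454%, 0.0373% and 0.0383%. Both were above scopolamine in tamsulosin nuclei, by 1.25 (1.19 to 1.32) and 1.22 (1.18 to 1.26), with intervals that overlap that of complex IV. The 36 genes of complex I took 0.0633%, 0.0589% and 0.0650%, a ratio of 1.07 (1.05 to 1.10) for tamsulosin over scopolamine.

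Complex II (succinate dehydrogenase), the complex with no mitochondrially encoded subunit, and the assembly factors did not share the higher tamsulosin level. Their genes are also the longer ones, with median spans of 20715 bp for complex II and 9149.5 bp for the assembly factors. Nuclear-encoded subunits of complexes I, III, IV and V had medians of 8542, 4908.5, 6751 and 7184 bp. The part of gene length in these differences between complexes was not tested. The 4 genes of complex II took 0.0118% in tamsulosin, 0.0124% in scopolamine and 0.0157% in control acinar-like nuclei, with a tamsulosin over scopolamine ratio of 0.948 (0.890 to 1.01), and over the 6 classes this ratio ran from 0.629 to 0.948. For the 8 assembly factors it was 0.973 (0.906 to 1.04). In scopolamine against control, complex II stood at 0.792 (0.750 to 0.835) and complex I at 0.906 (0.884 to 0.929), but these directions depend on the scale: over UMIs without the secretory list and the mitochondrially encoded genes, complex I was 0.0743% in scopolamine and 0.0691% in control nuclei, complex V 0.0471% and 0.0408%, and complex II 0.0157% and 0.0167%. On that scale the tamsulosin value of complex II was 0.0159%, which turns its tamsulosin over scopolamine direction within the counting error, whereas complex IV kept its order at 0.0441%, 0.0316% and 0.0218%.

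**Figure D4:**
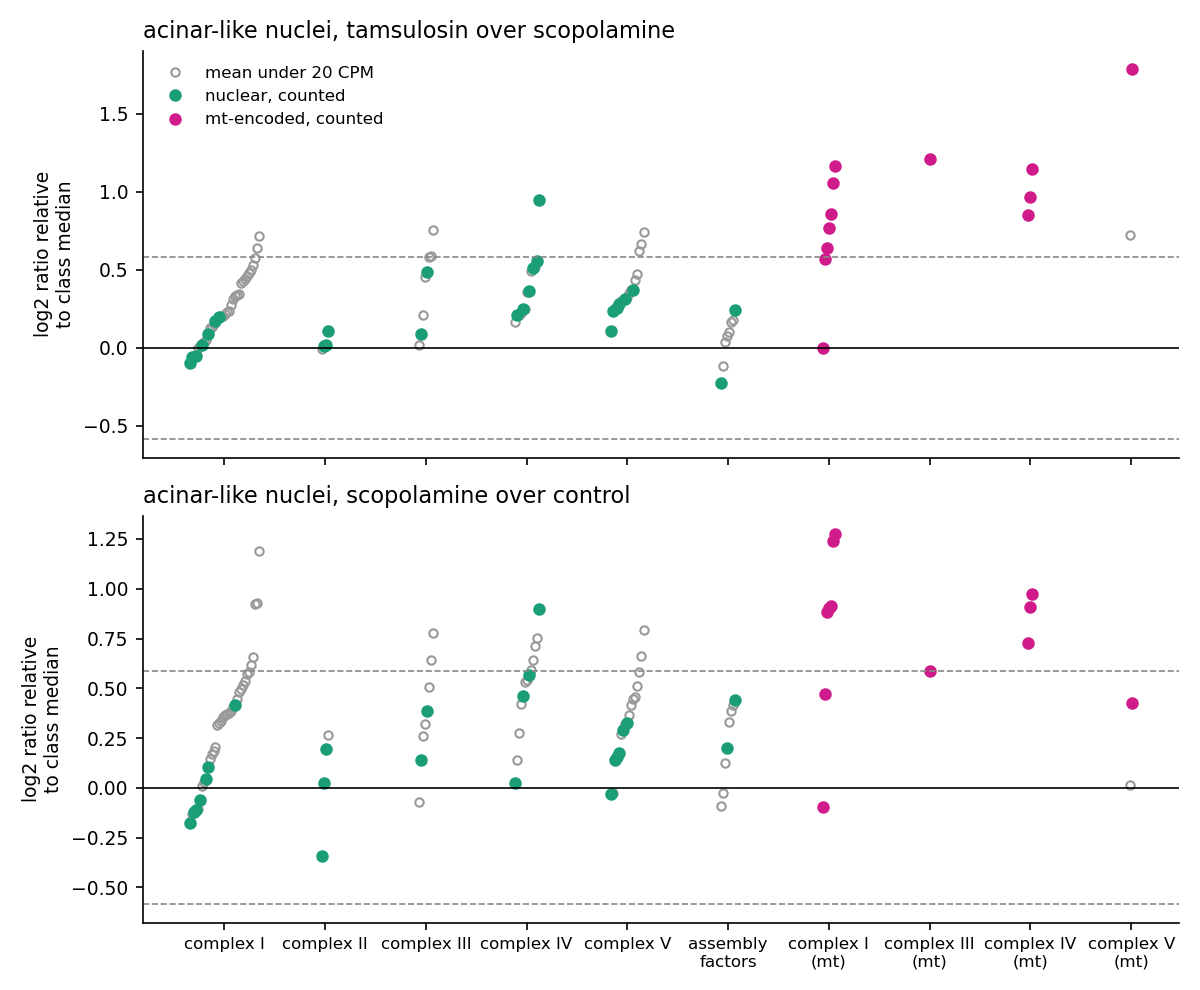
Log2 ratio relative to the class median (y axis) of every member in acinar-like nuclei, by complex (x axis), for tamsulosin over scopolamine (top) and scopolamine over control (bottom); filled points have a mean of at least 20 CPM, open points lie below it, and dashed lines mark 1.5-fold. In the top panel the mitochondrially encoded points reach 1.79 (mt-Atp6), Ndufa4 at 0.95 is the filled nuclear-encoded point past the line, and complex II points lie near 0.

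Single nuclear-encoded members were low: 26 of 86 had a mean of at least 20 CPM in acinar-like nuclei of the tamsulosin and scopolamine libraries. Ndufa4 had 40.4 CPM in tamsulosin, 20.2 in scopolamine and 15.4 in control acinar-like nuclei. The tamsulosin library stood apart, between 1.75 and 2.29 times the scopolamine level by its interval. Ndufa4 was the 1 of the 26 counted as higher, where 2.52% of all genes and 19.3% of the other genes under 10 kb were higher. The count of 1 is thus near the share of all genes. The relative log2 ratio of Ndufa4, 0.95, ran from 0.88 to 2.02 over the alternatives. Cox4i1, the regulatory subunit of complex IV with the ATP-binding site, had 41.9, 29.1 and 17.4 CPM, in the order tamsulosin, scopolamine, control. It was the 1 of 24 nuclear-encoded members counted as higher in scopolamine than in control nuclei. In that comparison 7.19% of all genes and 33.5% of the other genes under 10 kb were higher, so this count is not above that of all genes. The relative log2 ratio of Cox4i1 was 0.90, and 0.53 without cluster 9, where it was not counted.

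Next to these, Cox8a, a small structural subunit of complex IV, had 28.3 CPM in tamsulosin, 20.05 in scopolamine and 13.7 in control nuclei, and Uqcrh had 31.4, 22.9 and 21.1 CPM. Their relative log2 ratios for tamsulosin over scopolamine were 0.51 and 0.49, under the 1.5-fold limit. Atp5a1, the alpha subunit of the catalytic head of ATP synthase, followed at 0.37 (49.7, 40.3 and 45.3 CPM). At the other end stood Ndufaf2, an assembly factor of complex I, with 17.9, 23.6 and 25.5 CPM (-0.22), and the complex I subunits Ndufs3 (-0.10), Ndufs4 (-0.06) and Ndufs1 (-0.05). For scopolamine over control, Cox7c (0.57), Cox7b (0.46), Ndufaf4 (0.44) and Ndufb3 (0.42) followed Cox4i1, and Sdhb (-0.34), Ndufa10 (-0.17), Ndufv2 (-0.12), Ndufs4 (-0.11) and Ndufs3 (-0.06) were lowest. Sdhb, the iron-sulfur subunit of complex II, had 21.9 CPM in tamsulosin, 21.7 in scopolamine and 36.5 in control nuclei, so the control library stood apart, at a scopolamine over control ratio of 0.595 (0.526 to 0.672).

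Of the core subunits of the complexes, 4 lay close to the class median in acinar-like nuclei. Ndufs1, the largest iron-sulfur subunit of complex I, had 47.7 CPM in tamsulosin, 53.5 in scopolamine and 64.6 in control nuclei, and Ndufv2, an iron-sulfur subunit of its NADH module, had 35.9, 38.2 and 52.5. Sdha, the flavoprotein of complex II, had 65.1, 69.2 and 84.5, and Uqcrc2, a core protein of complex III, had 49.1, 49.5 and 55.7. Each of these was highest in control and lowest in tamsulosin nuclei on the CPM scale, with tamsulosin over scopolamine ratios between 0.891 and 0.991, and all 4 lay within 0.14 of the class median in both comparisons. Atp5b, the catalytic beta subunit of the ATP synthase, had 44.7, 38.7 and 49.7 CPM. Ndufs7 (9.66, 9.40 and 14.0 CPM), Ndufs8 (3.38, 2.89 and 1.75), Ndufv1 (7.28, 7.70 and 8.85), Uqcrfs1 (6.09, 5.27 and 5.08) and Uqcrc1 (15.6, 16.8 and 17.2) were under the 20 CPM limit.

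Of paralogs with tissue-restricted forms, these nuclei carried the widely expressed ones. Cox4i1, Cox6a1, Cox6b1, Cox7a2, Cox8a and Ndufa4 were members, while Cox4i2, Cox6a2, Cox6b2, Cox7a1, Cox8b and Ndufa4l2 had between 0 and 29 UMIs over all deposited barcodes. In acinar-like nuclei Cox6a1 had 18.0 CPM in tamsulosin, 17.0 in scopolamine and 11.0 in control, Cox6b1 had 18.1, 16.4 and 13.1, and Cox7a2 had 19.6, 13.7 and 12.1. Cox7a2l, a relative of Cox7a2 that joins complexes III and IV into supercomplexes, had 21.9, 19.9 and 24.98. The 3 genes for the same mature c subunit of the ATP synthase rotor differed in size of ratio: Atp5g1 had 8.67, 4.25 and 4.08 CPM, Atp5g2 30.6, 26.9 and 26.2, and Atp5g3 17.8, 14.4 and 14.7. Cox7b2, a relative of Cox7b, led the acinar-like nuclei against all other kept nuclei, from 1.63 times in control to 5.75 times in tamsulosin, on only 27 UMIs in tamsulosin, 12 in scopolamine and 17 in control.

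The other classes were counted in the same way in tamsulosin against scopolamine, where the members counted are again those at a mean of at least 20 CPM. In duct-like nuclei 13 of 13 mitochondrially encoded and 15 of 35 nuclear-encoded genes were higher, against 7.26% of all genes higher and 3.76% lower. In myoepithelial-like nuclei they were 12 of 13 and 19 of 40 (7.70% and 3.55% of all genes), in fibroblast-like nuclei 11 of 12 and 5 of 27 (6.66% and 1.23%), in macrophage-like nuclei 12 of 12 and 13 of 32 (6.58% and 4.19%), and in T or NK-like nuclei 12 of 13 and 13 of 35 (12.0% and 6.58%). No member was counted as lower in these 5 comparisons. Most of these nuclear-encoded members are short genes: under 10 kb they were 14 of 22 members in duct-like, 17 of 25 in myoepithelial-like, 5 of 14 in fibroblast-like, 11 of 18 in macrophage-like and 9 of 18 in T or NK-like nuclei. Of the other genes of that length, 41.2%, 45.3%, 27.9%, 35.6% and 42.3% were higher in the same classes. Since members enter only through their level in these libraries, the values of all 86 are given too: the median relative log2 ratio over all 86 was 0.25 in acinar-like, 0.50 in duct-like, 0.54 in myoepithelial-like, 0.27 in fibroblast-like, 0.47 in macrophage-like and 0.51 in T or NK-like nuclei, where the median of all 16095 genes with at least 50 UMIs was 0.03, 0.09, 0.16, 0.05, 0.07 and 0.17.

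Ndufa4 was counted as higher in 6 of 6 classes. It had 61.1 CPM in tamsulosin, 25.8 in scopolamine and 14.8 in control duct-like nuclei, and 63.7, 30.7 and 23.998 CPM in myoepithelial-like nuclei. In fibroblast-like nuclei it had 33.5, 16.8 and 9.57 CPM, in macrophage-like 56.9, 24.4 and 13.9, and in T or NK-like 51.0, 30.4 and 21.5. The 3 libraries stood in the order tamsulosin, scopolamine, control in each class, and the relative log2 ratio for tamsulosin over scopolamine ran from 0.91 to 1.30. Cox4i1 and Cox8a were higher in 5 of 6 classes, Cox7c (a small subunit of complex IV) in 4 of 6, Uqcrh in 3 of 6, Atp5h and Cox6c in 4 of the 4 classes where their level allowed a count, and Atp5e and Ndufb11 in 3 of 3. In macrophage-like nuclei Atp5h, Cox6c, Atp5e and Ndufb11 had 24.7, 31.5, 36.5 and 33.4 CPM in tamsulosin but 18.0, 15.4, 12.2 and 11.5 in scopolamine. The tamsulosin values thus took them past the 20 CPM mean there, so 4 of 4 and 3 of 3 do not measure consistency. Cox4i1 had 60.0 CPM in tamsulosin, 30.9 in scopolamine and 14.2 in control duct-like nuclei. Sdha, by contrast, had 77.1, 89.2 and 85.0 CPM there, and its relative log2 ratio lay between -0.30 and 0.02 over the 6 classes. Atp5e, the small epsilon subunit of the ATP synthase, had relative log2 ratios from 1.34 to 1.49, and Ndufb11, a membrane-arm subunit of complex I, had 1.02 to 1.43. The 5 counted genes of fibroblast-like nuclei were Uqcrh, Ndufs5, Ndufa4, Cox4i1 and Cox8a. By complex, the counted genes of duct-like nuclei were 7 of 10 for complex IV, 4 of 9 for complex V, 3 of 10 for complex I, 1 of 2 for complex III and 0 of 2 for complex II. In that class 7.26% of all genes and 41.2% of the other genes under 10 kb were higher. The complexes differ in gene length, and a high tamsulosin value helps a member reach the 20 CPM mean. These counts therefore do not rank the complexes.

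**Figure D5:**
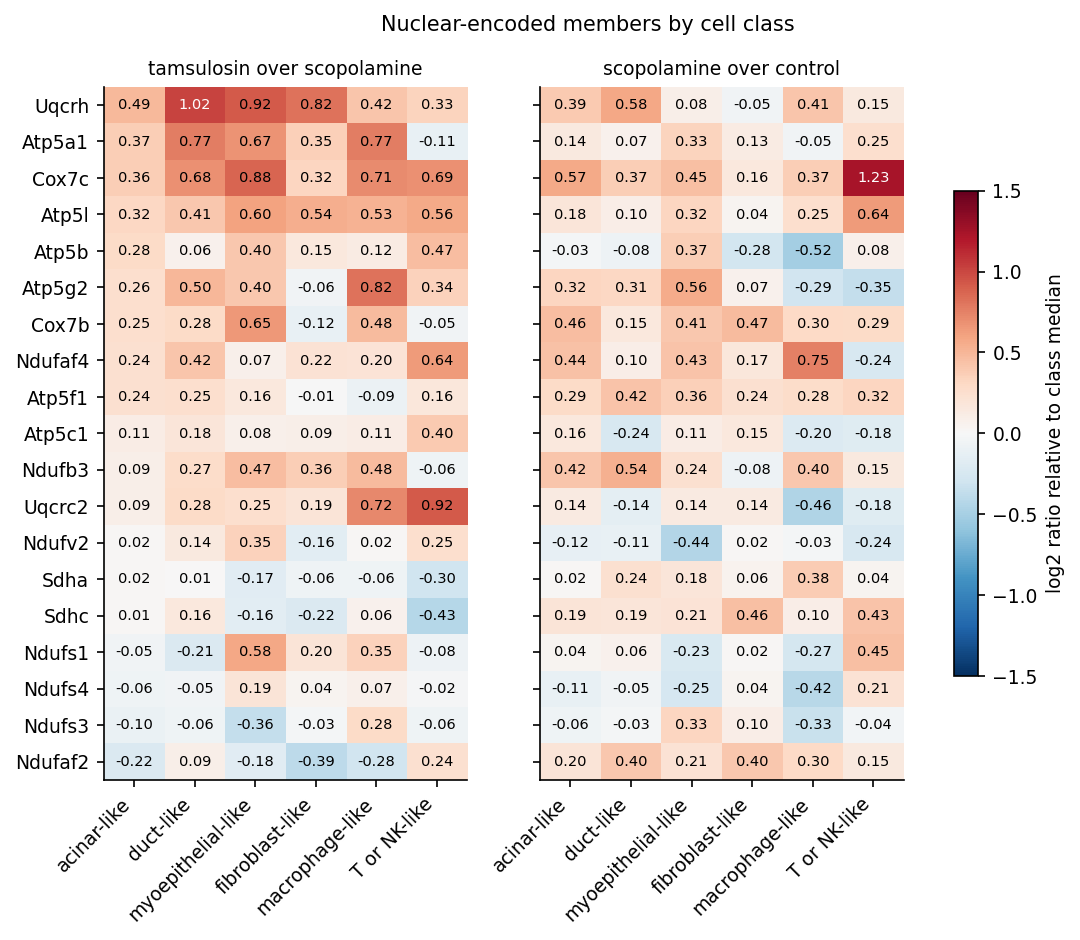
Log2 ratio relative to the class median of the 19 nuclear-encoded members with a mean of at least 20 CPM in every class and both comparisons, for tamsulosin over scopolamine (left) and scopolamine over control (right); rows are genes, columns are cell classes, and red is higher in the library named first. On the left Uqcrh is above 0 in all 6 classes (0.33 to 1.02) and Sdha lies between -0.30 and 0.02.

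In scopolamine against control the other classes had few counted members. In duct-like nuclei 2 of 12 mitochondrially encoded genes were higher and 1 lower, and 3 of 26 nuclear-encoded genes were higher, against 10.6% of all genes higher and 9.11% lower. The 3 were Ndufa4, Cox4i1 and Cox8a, and the mitochondrially encoded ones were mt-Nd4 and mt-Nd6 above and mt-Nd3 below. In myoepithelial-like nuclei 1 of 13 mitochondrially encoded genes was lower and 4 of 31 nuclear-encoded genes were higher (9.90% and 7.90% of all genes), in fibroblast-like nuclei 1 of 11 was lower and 0 of 24 nuclear-encoded genes were counted (6.42% and 5.42%), in macrophage-like nuclei 2 of 12 were higher, 1 was lower and 2 of 24 nuclear-encoded genes were higher (10.9% and 9.63%), and in T or NK-like nuclei 3 of 11 were higher, with 3 of 26 nuclear-encoded genes higher and 1 lower (16.1% and 12.5%). The nuclear-encoded genes among these were Atp5j2, Ndufa4, Uqcrc1 and Uqcr11 in myoepithelial-like, Ndufaf4 and Cox4i1 in macrophage-like, and Ndufa4, Atp5l and Cox7c above and Ndufa10 below in T or NK-like nuclei, all named, like the other short lists here, after their values were seen. The nuclear-encoded shares are near those of all genes. In myoepithelial-like nuclei the lowest and highest of the members at 50 CPM or more were mt-Nd3 (-1.02) and Sdha (0.18), with 165.5 CPM of mt-Nd3 in tamsulosin, 111.8 in scopolamine and 301.5 in control nuclei. mt-Nd3 was counted as lower in 4 of 6 classes and mt-Nd4 as higher in 4 of 6.

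Nuclear-encoded members stood out in single classes by small factors. Ndufaf2, the complex I assembly factor, led duct-like nuclei, with 40.7 CPM in tamsulosin, 44.4 in scopolamine and 37.3 in control, which was 2.67, 1.89 and 1.45 times the level of all other kept nuclei. Ndufa5, a subunit of the complex I arm, led myoepithelial-like nuclei (1.89, 1.59 and 2.81 times), and Sdhb was the second gene in acinar-like nuclei (1.54, 1.29 and 1.16 times). Ndufaf3 came second in duct-like nuclei at 1.36 to 1.55 times, on as few as 5 UMIs. Ndufaf6 and Ndufaf7 led fibroblast-like nuclei, Ndufaf5 and Ndufb4 macrophage-like nuclei, and Ndufa7 and Cox5a T or NK-like nuclei, with lowest ratios between 1.22 and 1.43 over the libraries. Of the 86 nuclear-encoded genes, 34 were above the other nuclei in all 3 libraries in duct-like, 35 in myoepithelial-like and 13 in fibroblast-like nuclei, while 7, 15 and 21 were below them. Of all 16095 genes with at least 50 UMIs, 38.8% were above in duct-like, 20.3% in myoepithelial-like and 37.3% in fibroblast-like nuclei, and 24.3%, 42.2% and 8.73% were below. The duct-like count above was thus near that of all genes. Acinar-like nuclei had 20 members above and 18 below, where 34.6% and 32.1% of all genes were.

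Gene length moved with the ratios, though not the same way in every class. In fibroblast-like nuclei, scopolamine over control, the 489 genes under 10 kb outside the members had a median relative log2 ratio of -0.05. The 1579 of at least 100000 bp had 0.10 there, so the short genes did not stand higher. The nuclear-encoded members span a median of 7565 bp, and the shorter spans stood higher: among genes under 10 kb at a mean of at least 20 CPM in acinar-like nuclei, the median relative log2 ratio of tamsulosin over scopolamine was 0.32 for 13 members and 0.18 for 488 other genes, and for scopolamine over control 0.39 for 11 members and 0.29 for 493 others. In the other 5 classes the short genes stood higher still in tamsulosin over scopolamine, with medians of 0.39 to 0.73 for 14 to 25 members and 0.19 to 0.50 for 428 to 526 other genes. In acinar-like nuclei 19.3% of the other short genes were counted as higher, the lowest share of the 6 classes, and the other 5 had 27.9 to 45.3%. In acinar-like nuclei the 2 members of 30000 to 100000 bp had a median of 0.07 and the 2 longer ones of -0.14 in tamsulosin over scopolamine. By the same measure 50 of 84 cytosolic ribosomal protein genes were higher in tamsulosin than in scopolamine and 65 of 81 in scopolamine than in control nuclei. The part of gene length in the members' ratios was not tested further.

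Few genes around the chain were counted in acinar-like nuclei, and few of all genes were. In tamsulosin over scopolamine 2.52% of all genes were higher and 0.407% lower, and in scopolamine over control 7.19% and 3.69%. Counts of 0 or 1 in lists this short are near these shares and do not show that a list stayed level. Of 8 genes for cytochrome c and for adenine nucleotide and phosphate exchange, 3 had a mean of at least 20 CPM in tamsulosin and scopolamine nuclei, and 0 were counted, with relative log2 ratios from -0.03 to 0.05. Of 37 assembly factors outside the symbol rule, 10 reached that level and 0 were counted, and the same held for 4 of 12 genes of mitochondrial transcription and RNA, 8 of 12 regulators such as Ppargc1a, Nrf1 and Gabpa, and 12 of 16 genes of pyruvate oxidation and the tricarboxylic acid cycle. In scopolamine against control, 1 of 10 assembly factors (Taco1) was lower, 1 of 12 tricarboxylic acid cycle genes (Idh3b) was higher and 1 (Pdhb) lower, and 0 of 4 cytochrome c and exchange genes, 0 of 5 transcription genes and 0 of 9 regulators were counted. Of the 11 secretory transcripts, 5 were higher in tamsulosin than in scopolamine and 10 in scopolamine than in control nuclei. Of 6 nuclear-retained RNAs, 5 reached the level, and 0 were higher in tamsulosin than in scopolamine nuclei and 1 (Malat1) in scopolamine than in control nuclei.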

How the data were processed

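The values are raw UMI counts per gene and nucleus, deposited by the authors as 1 filtered matrix per library; per the submitters' processing notes and the file headers they were made with Cell Ranger 5.0.0 on mm10. The annotation release and whether intronic reads were counted are not given in the sources used here. Total counts were 57969348 in the tamsulosin, 35237256 in the scopolamine and 33500727 in the control library. Barcodes under 500 UMIs or 300 genes or above 5% mitochondrial UMIs were left out (271, 16 and 59 barcodes for the last), as were doublets, taken as the highest scores at 0.8% per 1000 barcodes (1156, 801 and 414). Nuclei were clustered without the members and other mitochondrial genes (scanpy 1.11.5, 2000 variable genes, 30 components, 15 neighbours, Leiden resolution 1, 23 clusters) and named from marker lists, with naming thresholds set after the clusters were seen. The acinar-like name needed 8 markers at 1.25-fold over non-epithelial nuclei. Counts were summed per class and library and divided by all UMIs of that class. Shares have exact Clopper-Pearson, CPM exact Poisson and ratios exact conditional binomial 95% intervals (scipy 1.17.1). With 1 library per group no test was run. The call rule was tested on simulated data. Gene positions and spans come from the GENCODE annotation of GRCm38.

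Genes named in the text are the 13 mitochondrially encoded ones, the 5 highest and 5 lowest nuclear-encoded ratios in acinar-like nuclei, paralogs, core subunits, the 2 highest and 2 lowest members at 50 CPM in other classes and the 2 leading members of each class. 1 gene of the core subunits is not reported here on its own. Members and lists were chosen with earlier results of these data known. Alternatives changed the pseudocount (1 CPM), the level filter, depth (thinning to 1000 UMIs, at least 1600 UMIs), the mitochondrial limit, doublets, the denominator, the clustering and the low-complexity class. Leaving out cluster 9 and taking the Kit and Car6 clusters alone were added after seeing the data.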

Additional observations from a re-analysis of the deposited data

Results flagged for a closer look

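The scopolamine over control ratio of acinar-like nuclei was set against that of the other classes, and 3 values ran the opposite way to it. With 1 library per group these differences were not tested. The mitochondrially encoded share stood at 0.635 times control in myoepithelial-like nuclei and at 1.44 times in acinar-like nuclei. In fibroblast-like nuclei it stood at 0.861 times control, against the same 1.44 in acinar-like nuclei. The acinar-like ratio was 0.977 without cluster 9, so neither class ran the opposite way to it there. In the Kit and Car6 clusters alone, which also leave out cluster 9, the acinar-like mitochondrially encoded genes stood higher in scopolamine than in control nuclei (median relative log2 ratio 0.86). There nearly all scopolamine nuclei are of cluster 3 and nearly all control nuclei of cluster 22, so cluster and library cannot be told apart. The nuclear-encoded share stood at 1.04 times control in duct-like and 0.962 times in acinar-like nuclei, a difference smaller than the change that the denominator alone makes in acinar-like nuclei (1.14).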

How the results depend on the processing

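No paired analysis was possible because each group has 1 library. The acinar-like mitochondrially encoded share was higher in tamsulosin than in scopolamine nuclei under every alternative run, by 1.59 to 2.93 times, and Ndufa4 and mt-Atp6 (relative log2 ratio 1.44 to 2.53) were counted as higher in all of them. Against control, the scopolamine excess was 1.01 with at least 1600 UMIs and 0.977 without cluster 9. In tamsulosin, scopolamine and control, the acinar-like mitochondrially encoded shares were 0.526%, 0.332% and 0.206% when thinned, 0.435%, 0.214% and 0.146% with doublets kept, 0.573%, 0.273% and 0.160% over the other denominator, 0.415%, 0.144% and 0.142% with at least 1600 UMIs, 0.821%, 0.339% and 0.178% with low-complexity clusters added, and 0.830%, 0.307% and 0.208% in the Kit and Car6 clusters. Without the mitochondrial limit they were 0.432% in tamsulosin and 0.161% in control, at Leiden resolution 2.0 they were 0.203% in scopolamine and 0.180% in control, and without cluster 9 they were 0.144% and 0.147%.

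The nuclear-encoded share moved to 0.196% in tamsulosin and 0.165% in scopolamine when thinned, to 0.243%, 0.199% and 0.174% in tamsulosin, scopolamine and control over the other denominator, to 0.177% and 0.154% in tamsulosin and scopolamine with at least 1600 UMIs, to 0.168% and 0.141% with low-complexity clusters, to 0.178% in tamsulosin at Leiden resolution 2.0, to 0.155% in scopolamine without cluster 9, and to 0.223% in tamsulosin and 0.170% in control in the Kit and Car6 clusters. Members counted as higher in tamsulosin than in scopolamine were 11, but 19 with low-complexity clusters and 43 in the Kit and Car6 clusters, and 0 were lower in any alternative. In scopolamine against control they were 9, but 15 when thinned, 14 in the Kit and Car6 clusters, 3 at Leiden resolution 2.0 and 1 each with at least 1600 UMIs and without cluster 9. Members lower there were 0, but 1 without the level filter (Sdhb), 1 with at least 1600 UMIs and 1 without cluster 9 (both mt-Nd3). In the main setting 2.52% and 7.19% of all genes were higher in these 2 comparisons. The shares of all genes under the alternatives are not given here, so these counts are not results about the members alone. The tamsulosin over scopolamine class median itself was -0.45 in the Kit and Car6 clusters and -0.37 with low-complexity clusters, against -0.10 in the main setting.

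The relative log2 ratio of mt-Nd6, tamsulosin over scopolamine, was -0.00 and turned to 0.97 with at least 1600 UMIs, 0.77 with low-complexity clusters, 1.02 without cluster 9 and 1.45 in the Kit and Car6 clusters. Of values of named genes under alternatives, 577 kept their side in tamsulosin against scopolamine, 41 passed and 5 lost the limit, and in scopolamine against control 583 kept it, 21 passed and 23 lost it. Where no depth or cluster choice shows it, the cause was not tested. Depth limits single nuclear-encoded members, most of which are under 20 CPM.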

Other observations

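Taco1, which in mammals encodes a translational activator of the mt-Co1 protein, was the member of the pathway lists with the widest gap between libraries, and was picked after its values were seen. In acinar-like nuclei it had 11.8 CPM in tamsulosin, 15.3 in scopolamine and 77.7 in control nuclei, from 179, 270 and 1772 UMIs. The control library stood apart in every class: duct-like nuclei had 4.95, 8.74 and 82.8 CPM, macrophage-like nuclei 6.80, 23.7 and 90.5, fibroblast-like nuclei 16.1, 20.1 and 106.3, T or NK-like nuclei 15.2, 20.3 and 90.1, and myoepithelial-like nuclei 8.54, 12.4 and 53.2. Differences of strain or animal between libraries cannot be told apart from the condition. mt-Co1 itself ran the other way in acinar-like nuclei, with 704.7, 416.4 and 258.2 CPM, but this order did not hold for every class. Summed with mt-Co2 and mt-Co3, it took 0.616% of UMIs in tamsulosin, 0.456% in scopolamine and 0.744% in control myoepithelial-like nuclei. There the sum was highest in control, as Taco1 was. In fibroblast-like nuclei the sum took 0.185%, 0.102% and 0.117%. The remaining classes kept the acinar-like order of the sum. A link between Taco1 and mt-Co1 was not tested.

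Low-complexity nuclei, left out of the classes, had 1.36% mitochondrially encoded UMIs in tamsulosin, 0.893% in scopolamine and 2.30% in control, and 0.151%, 0.0674% and 0.205% nuclear-encoded UMIs, from 2936, 516 and 52 nuclei. Barcodes above the mitochondrial limit held 17.3%, 2.18% and 16.0% of all mitochondrial UMIs of their libraries.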
